A study of Homo sapiens with 24 samples.

Results

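The MHC class I antigen presentation genes described here are the 4 heavy chain genes HLA-B, HLA-C, HLA-E and HLA-F, the light chain gene B2M, the peptide transporter genes TAP1 and TAP2, the loading factor gene TAPBP and the immunoproteasome subunit gene PSMB9. They were taken by symbol from a table of read counts, as 9 of its 26364 genes, and all 9 passed the filter on low counts. The list was chosen with earlier results of these data known. RNA was sequenced from N/TERT-1 cells, a line of human keratinocytes immortalised with telomerase, written nTERT-1 in the labels. The cells had the genotype NT, taken here as the reference because it names no target, or the knockdown genotypes KAT2A_KD, KAT2B_KD and KAT2AB_KD. KAT2A and KAT2B are the paralogous lysine acetyltransferases of the SAGA and ATAC coactivator complexes. The stages were Subconfluent, Confluent and Differentiated, and each of the 12 combinations of genotype and stage has 2 libraries. The Differentiated stage is day 4 in a deposited sample table, and the treatment label of all libraries is keratinocyte differentiation. What NT stands for, how the knockdowns were made, and whether a group's libraries came from separate cultures are not given in the sources used here. The p-values therefore measure only the spread between these libraries, which may be technical.

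Class I molecules show fragments of a cell's own proteins to T cells. The proteasome cuts the proteins, the TAP1 and TAP2 proteins together carry the peptides into the endoplasmic reticulum, tapasin (the product of TAPBP) holds the empty molecule at the transporter, and a heavy chain joined to beta-2 microglobulin (B2M) takes the peptide to the cell surface. Interferons raise transcription of most of these genes and exchange the standard catalytic subunits of the proteasome for inducible ones, among them PSMB9, which gives the immunoproteasome. Keratinocytes carry class I molecules at rest and answer interferon with more of them.

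The sequences upstream of these genes are shown for 6 members: TAP1 and PSMB9, which passed between genotypes, B2M, HLA-B and HLA-C, and TAPBP, which passed no test. They are the 250 bases before each gene start, read 5′ to 3′ on the gene's strand from the RefSeq promoter table of build GRCh38.p14, which is not the build of the count table (hg19). Capitals mark matches on either strand to the core of the interferon-stimulated response element (GAAA, 2 bases of any kind, then GAAA), to TTCNNNGAA, the gamma-activated site, or to the NF-kappaB consensus.
TAP1: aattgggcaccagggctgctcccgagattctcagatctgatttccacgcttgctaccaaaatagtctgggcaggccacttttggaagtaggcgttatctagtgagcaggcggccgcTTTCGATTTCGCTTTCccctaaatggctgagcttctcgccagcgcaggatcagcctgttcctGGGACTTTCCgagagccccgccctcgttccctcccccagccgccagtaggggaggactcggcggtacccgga
PSMB9: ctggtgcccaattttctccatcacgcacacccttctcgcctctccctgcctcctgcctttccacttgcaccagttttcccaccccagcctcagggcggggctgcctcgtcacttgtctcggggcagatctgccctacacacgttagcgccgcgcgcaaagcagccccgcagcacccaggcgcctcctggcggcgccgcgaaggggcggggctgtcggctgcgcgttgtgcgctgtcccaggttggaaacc
B2M: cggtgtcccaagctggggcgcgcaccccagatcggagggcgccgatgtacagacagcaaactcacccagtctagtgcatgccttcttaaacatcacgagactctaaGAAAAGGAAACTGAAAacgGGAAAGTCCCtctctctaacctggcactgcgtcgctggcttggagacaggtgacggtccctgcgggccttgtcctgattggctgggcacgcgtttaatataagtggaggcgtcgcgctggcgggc
HLA-B: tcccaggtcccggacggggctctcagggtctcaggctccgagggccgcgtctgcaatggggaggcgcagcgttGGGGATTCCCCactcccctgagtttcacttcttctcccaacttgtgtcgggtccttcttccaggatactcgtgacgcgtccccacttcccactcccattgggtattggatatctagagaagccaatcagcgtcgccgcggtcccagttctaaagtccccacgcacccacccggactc
HLA-C: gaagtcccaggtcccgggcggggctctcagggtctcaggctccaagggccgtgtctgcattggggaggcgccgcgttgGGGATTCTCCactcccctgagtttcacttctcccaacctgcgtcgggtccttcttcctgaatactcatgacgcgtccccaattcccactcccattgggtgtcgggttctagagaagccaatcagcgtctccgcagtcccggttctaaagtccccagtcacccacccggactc
TAPBP: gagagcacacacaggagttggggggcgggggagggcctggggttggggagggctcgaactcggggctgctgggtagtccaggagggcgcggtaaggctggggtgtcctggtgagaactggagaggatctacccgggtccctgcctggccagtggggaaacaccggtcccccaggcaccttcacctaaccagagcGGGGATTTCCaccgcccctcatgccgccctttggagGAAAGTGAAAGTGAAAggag
These stretches lie at chr6:32853705-32853954 for TAP1 (minus strand), chr6:32853942-32854191 for PSMB9 (plus strand), chr15:44711267-44711516 for B2M (plus strand), chr6:31357180-31357429 for HLA-B, chr6:31272093-31272342 for HLA-C and chr6:33314079-33314328 for TAPBP (each on the minus strand). TAP1 and PSMB9 are transcribed away from each other, with 488 bases between their starts, and the stretches of the pair share 13 bases. TAP1 has 2 entries in the table, and the one shown is the nearer to PSMB9.

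The motif search covered windows of 300 bases, from 250 before to 50 after each start, and 8 of the 9 members had an entry (HLA-E had none). The interferon-stimulated core was found in 5 of them (HLA-F, B2M, TAP1, TAP2 and TAPBP), against 3.57% of all 35116 promoters in the table. In TAP1 the matches began 134 and 128 bases before the start and overlapped, and in B2M they began 144 and 138 bases before it and overlapped likewise. The NF-kappaB consensus was found in 5 (HLA-B, HLA-C, B2M, TAP1 and TAPBP), against 5.91% of all promoters. The gamma-activated site was found in the other TAP1 entry alone, against 7.66% of all promoters. The PSMB9 window held none of the 3 motifs, but it did not reach the interferon-stimulated core matches of TAP1. Those lie between the starts of TAP1 and PSMB9, farther upstream of PSMB9 than the window. The HLA-B and HLA-C windows were 90.9% identical over aligned positions. A match describes the letters in the window and shows neither binding nor use.

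Library totals ran from 8010178 to 16054003 counts. Knockdown was checked on the targets. KAT2A was lower than in NT by 3.05 on the log2 scale in both Subconfluent and Confluent KAT2A_KD (passed at each stage), while its log2 difference of -1.52 in Differentiated KAT2A_KD had an adjusted p of 0.139. KAT2B passed as lower in Differentiated KAT2B_KD (log2 -2.68) and missed the threshold at Subconfluent (-3.03, adjusted p = 0.0689) and Confluent (-2.15, adjusted p = 0.220), where its counts were low in NT too. In KAT2AB_KD, KAT2A passed at Subconfluent (-1.75) and Confluent (-3.02), and KAT2B at Differentiated (-1.78). In the same cells KAT2A at Differentiated (-1.36, adjusted p = 0.144) and KAT2B at Subconfluent (-1.73, 0.117) and Confluent (-1.07, 0.419) did not pass. The mean log2 CPM of the 2 targets was 1.84 in Differentiated KAT2AB_KD replicate 1 and 3.53 in replicate 2, against 4.34 and 4.59 in Differentiated NT. Of these target calls, only that of KAT2A in Confluent KAT2AB_KD was kept without any 1 library. The adjusted p of the others rose to 0.146 (KAT2A, Subconfluent KAT2A_KD without its replicate 1), 0.0808 (KAT2A, Confluent KAT2A_KD without its replicate 1), 0.310 (KAT2A, Subconfluent KAT2AB_KD without its replicate 1), 0.0580 (KAT2B, Differentiated KAT2B_KD without its replicate 1) and 0.287 (KAT2B, Differentiated KAT2AB_KD without its replicate 1). The summed level of 8 keratinocyte markers was 15229 to 16979 CPM at Subconfluent, 19934 to 29915 at Confluent and 34037 to 74169 at Differentiated. Other cell types' markers were low: 6 leukocyte markers summed to 16.4 to 70.6 CPM (CD3E at 0), 5 Langerhans or dendritic cell markers to at most 4.87 CPM (CD207 at 0), and 5 fibroblast markers to 1.14 to 7.34 CPM before differentiation and 31.5 to 52.8 CPM after it. The part of these rises in the class I results was not tested.

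The counts of 2 members have an uneven grain. Every one of the 24 TAP1 counts, and 23 of the 24 PSMB9 counts, was a whole multiple of 8, against 2 to 7 of 24 for the other members. Of the 14287 genes whose counts sum to 240 or more, 9 had only multiples of 8 in the 24 libraries, and the 7 of those with a known chromosome lay on chromosome 6. A further grain was seen at other divisors: 29 genes had only multiples of 7 and 13 only multiples of 6. Of these, 28 and 13 had a known chromosome, and all lay on chromosome 6. The annotation of hg19 includes alternative sequences of the MHC region, and how reads that map to several places were counted is not given in the sources used here. If each TAP1 or PSMB9 read was counted 8 times, their depth was 580 to 2262 reads for TAP1 and 32 to 736 for PSMB9, in place of the 4640 to 18096 and 256 to 5888 counts in the table. Fold changes are not altered by a constant multiple, but precision is, so each result on these genes was also computed with the counts divided by 8. The heavy chain genes are paralogs with uncertain counts: 1.84% of 50-base windows of HLA-B transcripts, 3.42% of HLA-C, 1.41% of HLA-E and 0.669% of HLA-F occur unchanged in another of the 4. That search covered only protein-coding transcripts of these 4 genes, not HLA-G or pseudogenes, so it can understate the sharing of reads. HLA-B and HLA-C counts were nearly proportional, with a ratio not corrected for length of 0.722 to 0.783 at Subconfluent, 0.723 to 0.765 at Confluent and 0.788 to 0.833 at Differentiated. The pseudogene HLA-H, named after its values were seen, followed HLA-B with r = 0.982 over the 24 libraries once stage means were removed. For HLA-J, HLA-L and HLA-G, r with HLA-B was 0.963, 0.895 and 0.863.

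**Figure D1:**
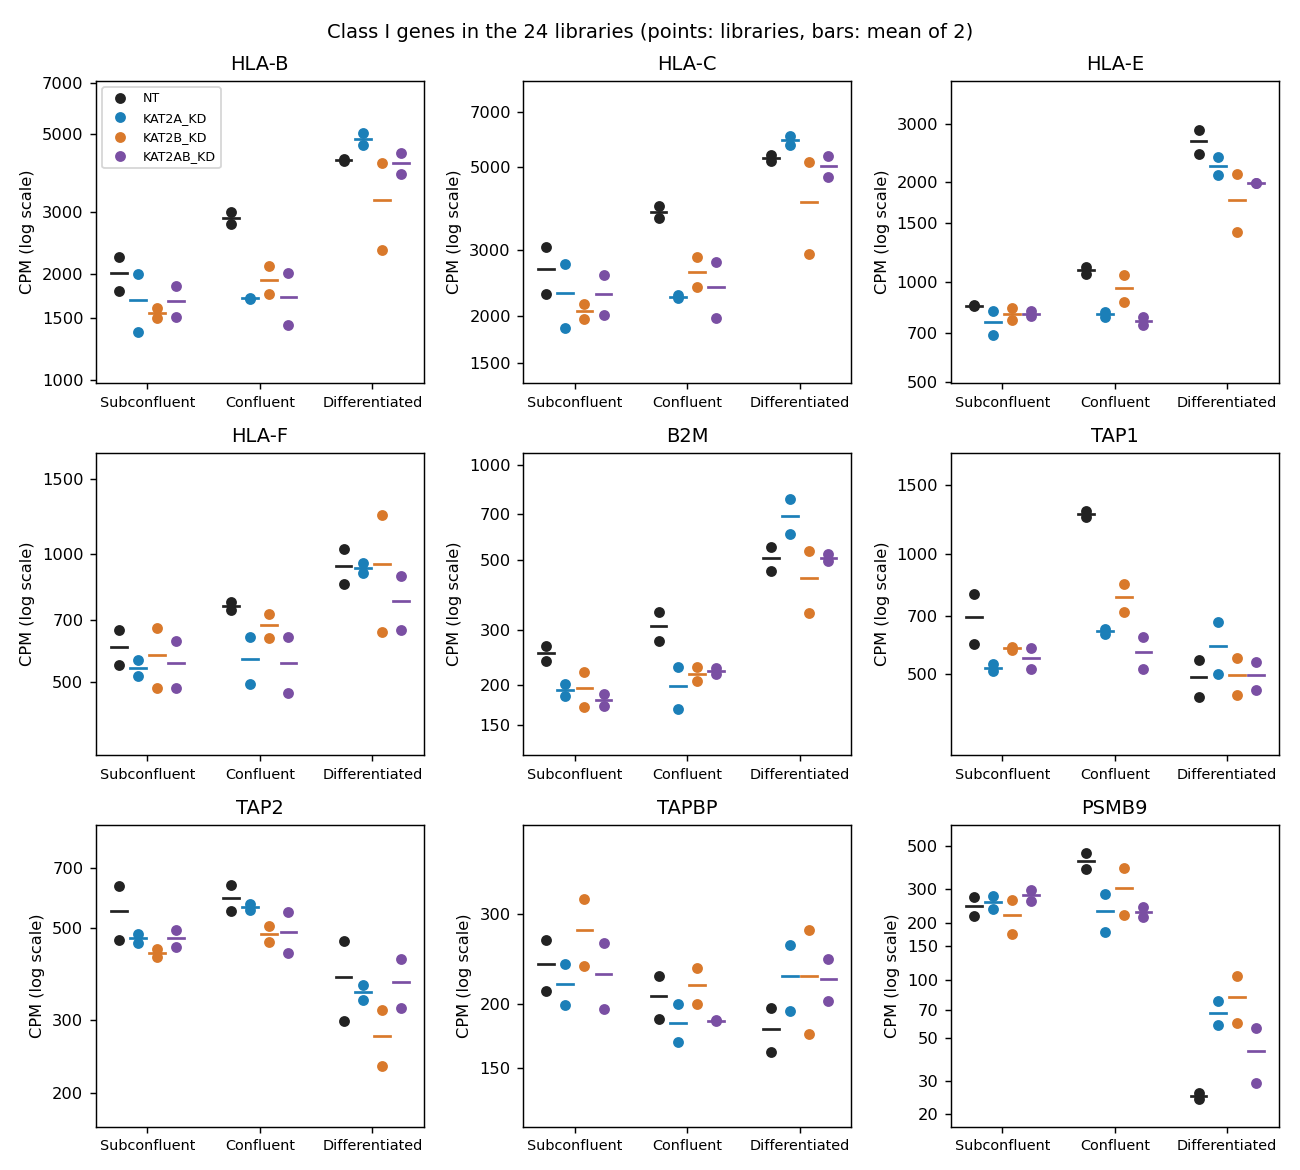
Level of each class I gene in CPM (log axis) in the 24 libraries, by stage (x axis) and genotype (colour), with points for libraries and bars for the mean of 2. The heavy chain genes and B2M are highest at Differentiated, PSMB9 is lowest there (24.1 to 105 CPM, against 173 to 462 at the other stages), and the 2 NT Confluent libraries stand above the other 22 in TAP1.

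From Confluent to Differentiated, HLA-E and B2M rose and PSMB9 fell in all 4 genotypes, while HLA-B passed as higher in 3 genotypes, HLA-C in 2 and HLA-F in 1. Values are CPM, the counts scaled to the library total with TMM factors, and a member passed at an adjusted p under 0.05 in edgeR's quasi-likelihood test over 15757 genes. HLA-E, the non-classical chain that is read by natural killer cells, stood at 1112 and 1057 CPM in the NT Confluent libraries and at 2879 and 2429 CPM in the NT Differentiated ones. It rose from Confluent to Differentiated in all 4 genotypes, by a log2 fold change of 1.29 ± 0.21 (SE, adjusted p = 4e-05) in NT, 1.49 ± 0.21 in KAT2A_KD, 0.88 ± 0.21 in KAT2B_KD and 1.38 ± 0.21 in KAT2AB_KD. At Differentiated it was 2100 and 2373 CPM in KAT2A_KD, 2116 and 1410 in KAT2B_KD, and 1992 and 1980 in KAT2AB_KD. All 8 Differentiated libraries lay above all 16 others for HLA-E. For this and later statements on overlap, the share of all genes whose libraries separate likewise was not computed.

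B2M, the light chain shared by all class I molecules, was 276 and 341 CPM in NT Confluent and 459 and 549 CPM in NT Differentiated. In KAT2A_KD it was 229 and 168 CPM at Confluent and 601 and 779 CPM at Differentiated. In KAT2B_KD it was 229 and 207 CPM, then 534 and 338 CPM, and in KAT2AB_KD 217 and 226 CPM, then 521 and 494 CPM. The stages did not overlap in any genotype. The log2 fold change was 0.71 ± 0.23 in NT (adjusted p = 0.0143), 1.80 ± 0.23 in KAT2A_KD (4.27e-06), 1.001 ± 0.23 in KAT2B_KD (0.00175) and 1.195 ± 0.23 in KAT2AB_KD (0.000288). The NT call was lost without NT Confluent replicate 1 (adjusted p = 0.134) or NT Differentiated replicate 2 (0.0781).

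HLA-B and HLA-C are classical heavy chains that present peptides to cytotoxic T cells. HLA-B was 2772 and 3012 CPM in NT Confluent and 4243 and 4199 CPM in NT Differentiated, and 1710 and 1707, then 4650 and 5050 CPM in KAT2A_KD. From Confluent to Differentiated it rose in KAT2A_KD (log2 1.51 ± 0.27, adjusted p = 0.000159), KAT2AB_KD (1.26 ± 0.27, 0.000768) and KAT2B_KD (0.75 ± 0.27, 0.0317), and was 0.55 ± 0.27 in NT (0.0955). The KAT2B_KD call rested on single libraries: its Differentiated libraries were 4145 and 2338 CPM, and without replicate 1 of that group the log2 change was 0.32 (adjusted p = 0.408). It was also lost without KAT2B_KD Confluent replicate 1 (0.0545) or 2 (0.152). HLA-C rose in KAT2A_KD (1.39 ± 0.28, adjusted p = 0.000478) and KAT2AB_KD (1.07 ± 0.28, 0.00352, lost at 0.0579 without KAT2AB_KD Confluent replicate 1), and was 0.48 ± 0.27 in NT (0.157) and 0.62 ± 0.28 in KAT2B_KD (0.0806). With DESeq2, HLA-B in NT (adjusted p = 0.0336) and HLA-C in KAT2B_KD (0.0266) passed as well. In no genotype did the Confluent and Differentiated libraries overlap for either gene.

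HLA-F, a non-classical heavy chain, had the smallest log2 change of the 4 in each genotype. It was 740 and 772 CPM in NT Confluent and 849 and 1028 CPM in NT Differentiated. It passed from Confluent to Differentiated in KAT2A_KD only by a narrow margin (log2 0.71 ± 0.27, adjusted p = 0.0422), and that call was lost without KAT2A_KD Differentiated replicate 1 (0.0786) or 2 (0.108) or Confluent replicate 2 (0.246). The values were 0.31 ± 0.27 in NT, and 0.48 ± 0.27 in both KAT2B_KD and KAT2AB_KD, none of which passed.

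PSMB9 encodes the inducible beta1i subunit of the immunoproteasome. It was 462 and 378 CPM in NT Confluent and 25.9 and 24.1 CPM in NT Differentiated, a log2 fold change of -4.07 ± 0.38 (adjusted p = 3.36e-08). In KAT2A_KD it went from 281 and 178 to 58.3 and 77.6 CPM (log2 -1.76 ± 0.34, adjusted p = 0.000322), and in KAT2B_KD from 383 and 219 to 105 and 59.8 CPM (-1.87 ± 0.34, 0.000195). In KAT2AB_KD it went from 215 and 240 to 56.7 and 29.2 CPM (-2.41 ± 0.35, 1.33e-05). All 8 Differentiated libraries lay below all 16 others, and the fall passed in all 4 genotypes without any 1 library and with the counts divided by 8.

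TAP1 encodes a subunit of the peptide transporter, and fell in NT from 1243 and 1288 CPM at Confluent to 542 and 438 CPM at Differentiated (log2 -1.37 ± 0.22, adjusted p = 2.77e-05). In KAT2B_KD it fell from 718 and 843 to 550 and 443 CPM (-0.65 ± 0.21, adjusted p = 0.0198), a call lost without KAT2B_KD Confluent replicate 2 (0.143) or Differentiated replicate 2 (0.145). In KAT2A_KD it was 630 and 650, then 499 and 676 CPM (-0.12 ± 0.21, adjusted p = 0.674), and in KAT2AB_KD 514 and 620, then 537 and 456 CPM (-0.19 ± 0.21, 0.485). The libraries of the stages overlapped in these last genotypes. TAP2, the partner subunit, fell in NT (-0.63 ± 0.23, adjusted p = 0.0287), KAT2A_KD (-0.68 ± 0.23, 0.0226) and KAT2B_KD (-0.82 ± 0.23, 0.0086), and was -0.41 ± 0.23 in KAT2AB_KD (0.161). In NT it was 635 and 551 CPM at Confluent and 466 and 299 CPM at Differentiated. The NT call for TAP2 was lost without NT Confluent replicate 1 (adjusted p = 0.155) or NT Differentiated replicate 2 (log2 -0.31, 0.367), and its log2 change was -0.97 without NT Differentiated replicate 1. The KAT2A_KD call was lost without any 1 of its 4 libraries: Confluent replicate 1 (0.0939) or 2 (0.0621), or Differentiated replicate 1 (0.127) or 2 (0.0765). The KAT2B_KD call was lost without Confluent replicate 1 (0.0666) or Differentiated replicate 1 (0.126). TAPBP ranged from 161 to 321 CPM over all 24 libraries and passed in none of the 36 comparisons.

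**Figure D2:**
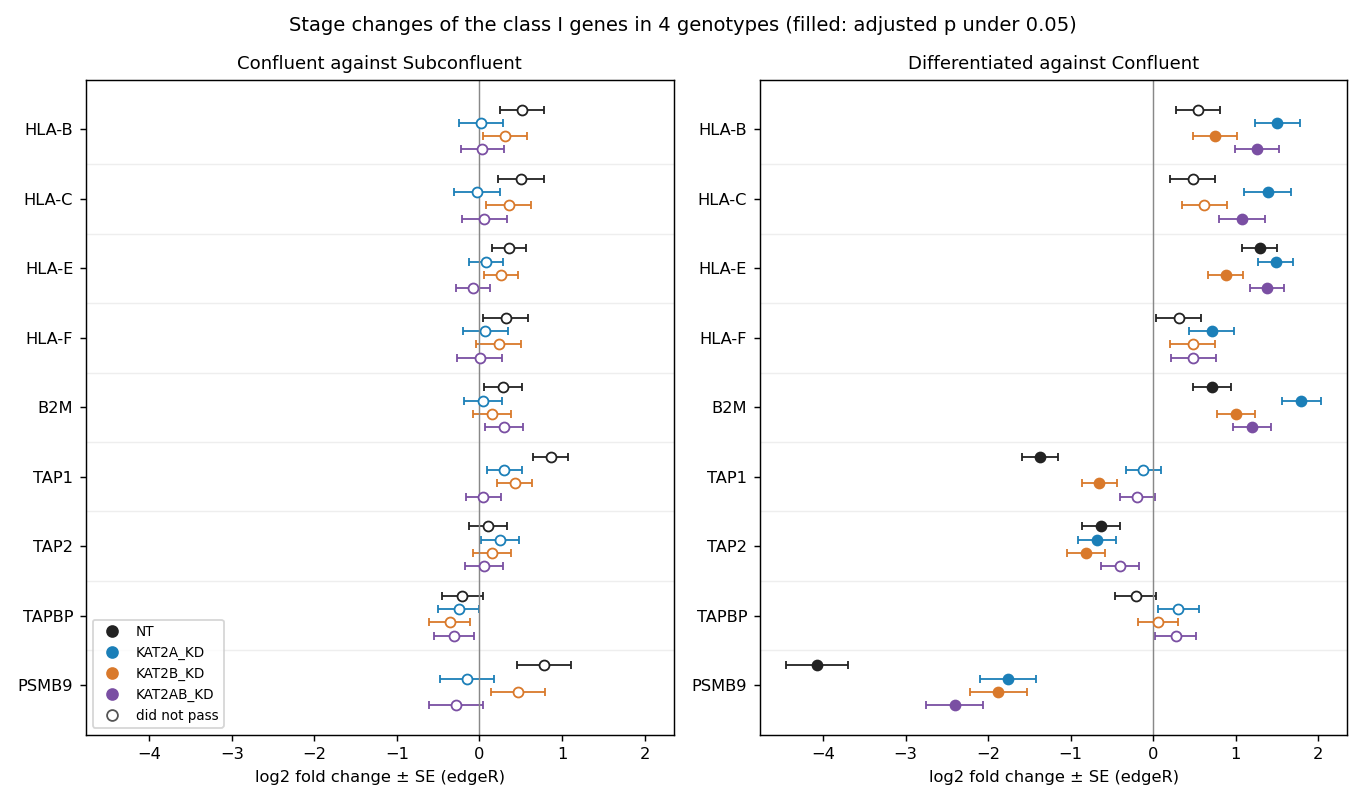
Log2 fold change with its standard error for each class I gene in the 4 genotypes, Confluent against Subconfluent on the left and Differentiated against Confluent on the right, filled where the adjusted p was under 0.05. On the left no point is filled, and on the right HLA-E and B2M are filled above 0 and PSMB9 below 0 in every genotype.

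From Confluent to Differentiated, then, 2 members passed as higher and 3 as lower in NT, against 50.4% of all genes tested that passed in either direction (24.3% higher and 26.1% lower). The counts were 5 higher and 2 lower in KAT2A_KD (43.1% of all genes, 21.4% higher and 21.7% lower). They were 3 and 3 in KAT2B_KD (39.6%, 19.3% higher and 20.3% lower), and 4 and 1 in KAT2AB_KD (46.2%, 22.6% higher and 23.6% lower). The NT count of 5 members fell to 3 without NT Confluent replicate 1 or NT Differentiated replicate 2. The median log2 change of the 9 members was 0.31 in NT, 0.71 in KAT2A_KD, 0.48 in KAT2B_KD and 0.48 in KAT2AB_KD, beside medians between -0.02 and 0.00 over all genes. These shares are read against that background, and no share is taken as particular to the members. In bulk RNA, more cells of a kind and more RNA per cell cannot be told apart.

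In Differentiated against Subconfluent cells of NT, HLA-B (log2 1.06 ± 0.27, adjusted p = 0.00263), HLA-C (0.98 ± 0.28, 0.00592), HLA-E (1.64 ± 0.21, 2.43e-06) and B2M (0.998 ± 0.23, 0.00124) passed as higher and PSMB9 (-3.29 ± 0.36, 3.37e-07) as lower, where 50.4% of all genes passed (24% higher and 26.5% lower). The HLA-C call was lost without NT Subconfluent replicate 1 (0.0786). HLA-F was 0.63 ± 0.27 (0.0607) and passed with RLE scaling (0.0394), TAP1 was -0.51 ± 0.21 (0.0536, and 0.0386 with its counts divided by 8), TAP2 was -0.52 ± 0.23 (0.0657) and TAPBP was -0.42 ± 0.25 (0.166). Both knockdowns of 1 gene had 5 members higher (HLA-F also), with PSMB9 lower, and TAP2 lower in KAT2B_KD, where 45.5% of all genes passed in KAT2A_KD (22.3% higher and 23.2% lower) and 42.6% in KAT2B_KD (20.7% higher and 21.9% lower). In KAT2A_KD, HLA-F (log2 0.78 ± 0.27, adjusted p = 0.0253) was lost without any 1 library: Subconfluent replicate 1 (0.133) or 2 (0.0762), or Differentiated replicate 1 (0.0534) or 2 (0.0754). The KAT2B_KD count of 7 members was 3 without its Differentiated replicate 1, where HLA-B (adjusted p = 0.0799), HLA-C (0.147), HLA-F (0.567) and TAP2 (0.262) were lost. Without KAT2B_KD Subconfluent replicate 1, HLA-C (0.0552) and TAP2 (0.0964) were lost, and without replicate 2, HLA-F (0.274) and TAP2 (0.0629). The HLA-F libraries of KAT2B_KD overlapped between the stages. In KAT2A_KD the other calls were HLA-B (1.52), HLA-C (1.36), HLA-E (1.57), B2M (1.84) and PSMB9 (-1.91), and TAP1 was at 0.18, TAP2 at -0.43 and TAPBP at 0.05. In KAT2B_KD the calls were HLA-B (1.06), HLA-C (0.97), HLA-E (1.14), HLA-F (0.71), B2M (1.15), TAP2 (-0.66) and PSMB9 (-1.40), and TAP1 was at -0.22 and TAPBP at -0.30. KAT2AB_KD had 4 higher, HLA-B (1.29), HLA-C (1.13), HLA-E (1.31) and B2M (1.49), and 1 lower, PSMB9 (-2.69), with 47.9% of all genes (23.5% higher and 24.4% lower).

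The largest member difference between Subconfluent and Confluent was in TAP1 of NT, which did not pass. TAP1 was 596 and 797 CPM in NT Subconfluent and 1243 and 1288 CPM in NT Confluent, without overlap, and its log2 change of 0.86 ± 0.21 had an adjusted p of 0.0638. It passed with DESeq2 (adjusted p = 0.000634), without the filter on low counts (0.0496) and with its counts divided by 8 (0.0389). PSMB9 in NT was 217 and 273, then 462 and 378 CPM (0.78 ± 0.33, adjusted p = 0.356). The other members of NT were at 0.52 (HLA-B), 0.51 (HLA-C), 0.35 (HLA-E), 0.32 (HLA-F), 0.29 (B2M), 0.11 (TAP2) and -0.21 (TAPBP). By edgeR, 0 of 9 members passed from Subconfluent to Confluent in each genotype, where 0.901% of all genes passed in NT, 0.235% in KAT2A_KD, 1.61% in KAT2B_KD and 0.609% in KAT2AB_KD. At an unadjusted p under 0.05 there were 2 members in NT (beside 1827 of all genes) and 0 in each knockdown. DESeq2 called 1 in NT (beside 378 of all genes) and 0 in each knockdown. In the knockdowns TAP1 changed by 0.30 ± 0.21, 0.43 ± 0.21 and 0.05 ± 0.21 in KAT2A_KD, KAT2B_KD and KAT2AB_KD. The 9 members ran from -0.25 (TAPBP) to 0.30 in KAT2A_KD, from -0.36 (TAPBP) to 0.47 (PSMB9) in KAT2B_KD, and from -0.31 (TAPBP) to 0.30 (B2M) in KAT2AB_KD. The difference of each of these from the NT change did not pass, at -0.56 ± 0.30, -0.43 ± 0.30 and -0.81 ± 0.30 (adjusted p = 1, 1 and 0.798), nor did that of any other member, with PSMB9 at -0.93, -0.31 and -1.06. No gene of the 15757 passed in these differences by edgeR (0% of all genes in each), 391, 381 and 869 had an unadjusted p under 0.05, and DESeq2 called 1, 2 and 0.

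In confluent cells TAP1 was lower in KAT2A_KD and KAT2AB_KD than in NT. The NT Confluent libraries had 1243 and 1288 CPM, KAT2A_KD 630 and 650, KAT2B_KD 718 and 843, and KAT2AB_KD 514 and 620. All 6 knockdown libraries lay below both of NT, but the same NT libraries enter each of these comparisons. The log2 difference was -0.98 ± 0.21 in KAT2A_KD (adjusted p = 0.0343), -1.16 ± 0.21 in KAT2AB_KD (0.00386) and -0.70 ± 0.21 in KAT2B_KD (0.259, and 0.0380 with DESeq2). The KAT2A_KD call was lost without any 1 of the 4 libraries: KAT2A_KD replicate 1 (adjusted p = 0.248) or 2 (0.287), or NT replicate 1 (0.180) or 2 (0.205). The KAT2AB_KD call was lost without its replicate 1 (0.0994).

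No other member passed in confluent cells. HLA-B was 2772 and 3012 CPM in NT, 1710 and 1707 in KAT2A_KD, 2106 and 1755 in KAT2B_KD, and 1438 and 2021 in KAT2AB_KD, so that all 6 knockdown libraries lay below NT. Its log2 differences were -0.76 ± 0.27, -0.58 ± 0.27 and -0.74 ± 0.27 (adjusted p = 0.366, 0.688 and 0.191). PSMB9 was at -0.87 ± 0.33 in KAT2A_KD (adjusted p = 0.453) and -0.89 ± 0.33 in KAT2AB_KD (0.214), and passed in both without the filter on low counts (0.0364 and 0.0166). PSMB9 in KAT2B_KD was at -0.48 ± 0.33. In KAT2A_KD, KAT2B_KD and KAT2AB_KD, B2M was at -0.63, -0.50 and -0.48, HLA-C at -0.75, -0.53 and -0.67, HLA-E at -0.44, -0.18 and -0.51, and HLA-F at -0.41, -0.15 and -0.44. TAP2 was at -0.08, -0.29 and -0.27, and TAPBP at -0.17, 0.07 and -0.16. In all, 1 member passed as lower in KAT2A_KD, 0 in KAT2B_KD and 1 in KAT2AB_KD, where 0.647%, 0.463% and 2.28% of all genes passed (0.381% as lower in KAT2A_KD and 0.888% in KAT2AB_KD). At an unadjusted p under 0.05 there were 6, 3 and 5 members, beside 1221, 1076 and 2060 of all genes. DESeq2 called 1 in each, beside 188, 154 and 601 of all genes. The median of the 9 members was -0.63, -0.48 and -0.51, beside medians of 0.00 over all genes.

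The confluent NT libraries also stood apart in interferon-stimulated genes. The mean log2 CPM of 30 type I interferon-stimulated genes was 5.17 and 5.59 in the NT Confluent libraries and 1.47 to 4.64 in the other 22. From Subconfluent to Confluent, 18 of the 30 rose in NT and 0 fell (5 without NT Subconfluent replicate 1, 6 without replicate 2, 8 without NT Confluent replicate 2), where 0.901% of all genes passed. Against confluent NT, 21 of the 30 were lower in KAT2A_KD, 25 in KAT2B_KD and 24 in KAT2AB_KD, and none was higher, where 0.647%, 0.463% and 2.28% of all genes passed in either direction. Leaving out 1 library gave 13 to 18 in KAT2A_KD, with 13 without either KAT2A_KD library. In KAT2B_KD it gave 10 to 23, with 10 without its replicate 1 and 16 without its replicate 2. In KAT2AB_KD it gave 12 to 20, with 12 without its replicate 1, 15 without its replicate 2 and 14 without NT replicate 2. The part of this difference in the TAP1 result was not tested.

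**Figure D3:**
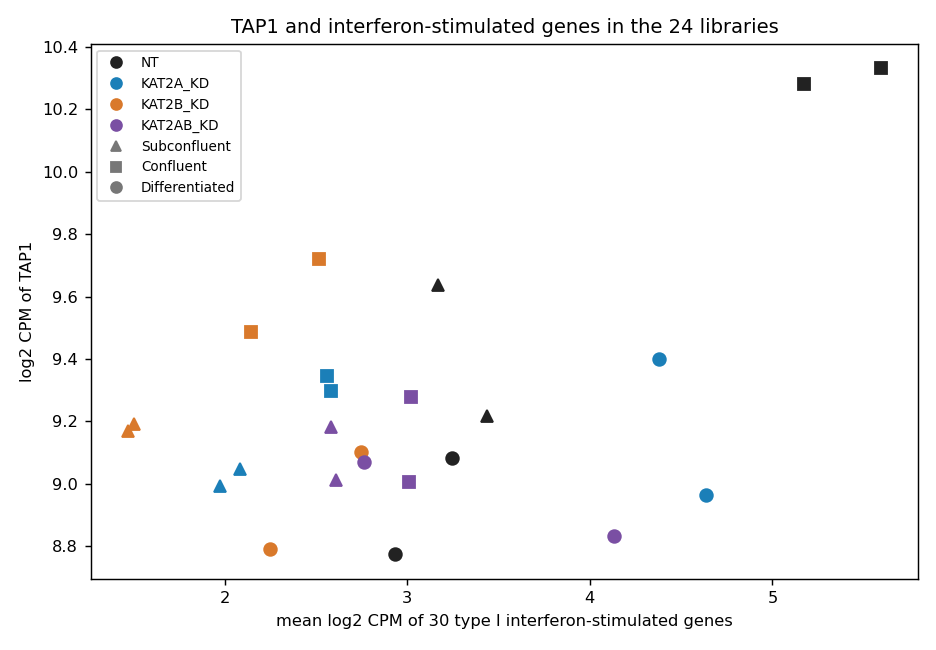
Log2 CPM of TAP1 (y axis) against the mean log2 CPM of 30 type I interferon-stimulated genes (x axis) in the 24 libraries, coloured by genotype and shaped by stage. The 2 NT Confluent libraries lie at the upper right, at 5.17 and 5.59 on the x axis, while the Differentiated KAT2A_KD libraries at 4.38 and 4.64 lie within the range of the other libraries on the y axis.

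In differentiated cells PSMB9 passed as higher than in NT in the knockdowns of 1 gene. It stood at 25.9 and 24.1 CPM in NT, 58.3 and 77.6 in KAT2A_KD, 105 and 59.8 in KAT2B_KD, and 56.7 and 29.2 in KAT2AB_KD. Each knockdown library lay above both NT libraries, which enter each of these comparisons. The log2 difference was 1.44 ± 0.34 in KAT2A_KD (adjusted p = 0.0462), 1.71 ± 0.35 in KAT2B_KD (0.00585) and 0.78 ± 0.34 in KAT2AB_KD (0.264). The KAT2A_KD call was lost without KAT2A_KD replicate 1 (adjusted p = 0.101) or 2 (0.208), without NT replicate 1 (0.168) or 2 (0.275), and with the counts of TAP1 and PSMB9 divided by 8 (0.0733). The KAT2B_KD call was lost without KAT2B_KD replicate 1 (0.0860) or NT replicate 2 (0.0665).

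No other member passed in differentiated cells, so that the counts were 1 higher in KAT2A_KD, 1 higher in KAT2B_KD and 0 in KAT2AB_KD by edgeR, where 1.22%, 4.85% and 2.74% of all genes passed (0.92% as higher in KAT2A_KD and 1.67% in KAT2B_KD). In KAT2AB_KD 1 member had an unadjusted p under 0.05, beside 2485 of all genes, and DESeq2 called 0, beside 739 of all genes. HLA-E was 2879 and 2429 CPM in NT and lower in all 6 knockdown libraries, with log2 differences of -0.25 ± 0.21, -0.59 ± 0.21 and -0.42 ± 0.21 in KAT2A_KD, KAT2B_KD and KAT2AB_KD. In KAT2B_KD its adjusted p was 0.114 by edgeR and 0.0157 by DESeq2. B2M was at 0.45 ± 0.23 in KAT2A_KD (adjusted p = 0.420), -0.21 ± 0.23 in KAT2B_KD and 0.01 ± 0.23 in KAT2AB_KD. HLA-B was at 0.20 ± 0.27, -0.38 ± 0.27 and -0.03 ± 0.27, HLA-C at 0.16 ± 0.27, -0.39 ± 0.27 and -0.07 ± 0.27, and TAP1 at 0.26 ± 0.21, 0.02 ± 0.21 and 0.02 ± 0.21. HLA-F was at -0.02, 0.01 and -0.27, TAP2 at -0.13, -0.47 and -0.04, and TAPBP at 0.35, 0.34 and 0.33.

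**Figure D4:**
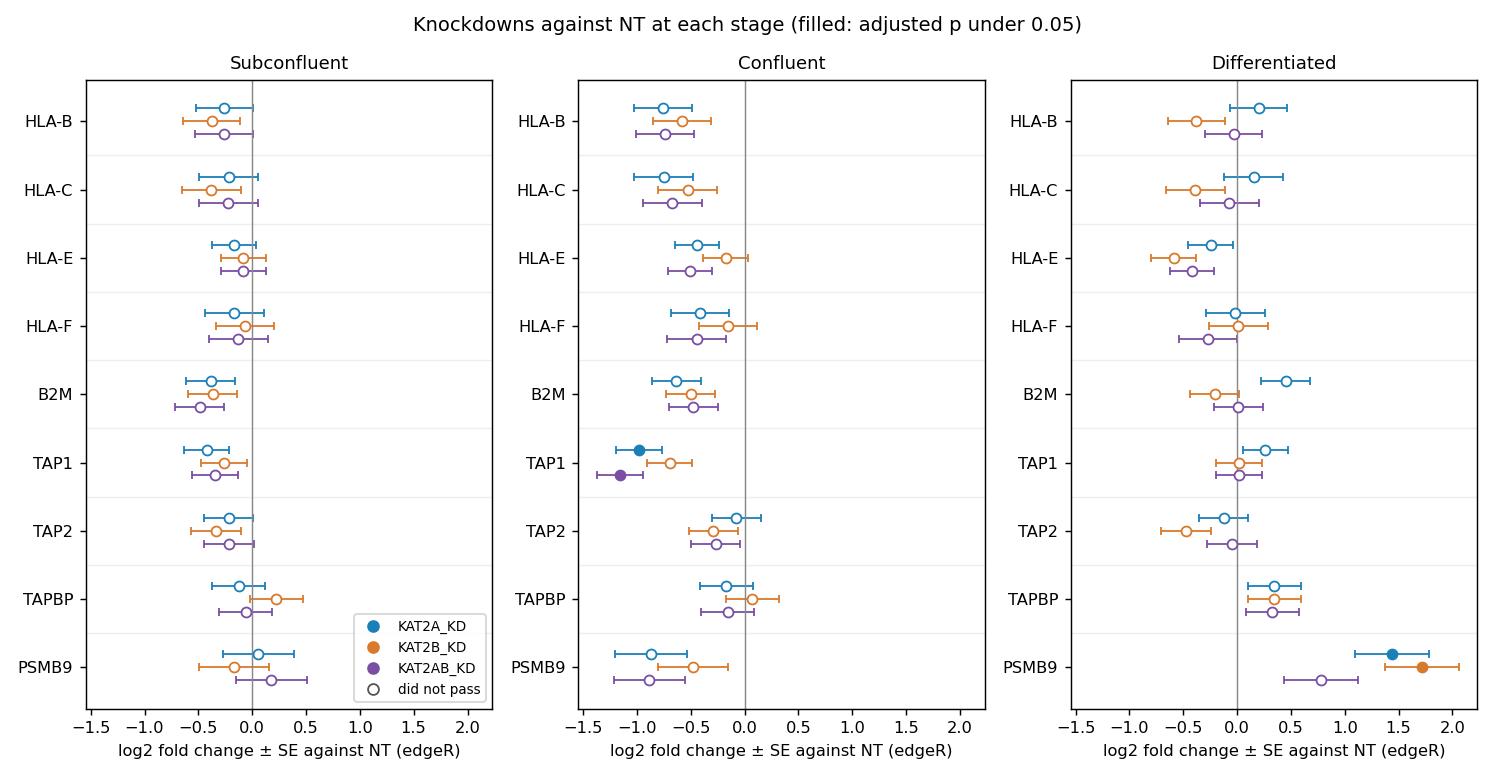
Log2 difference from NT with its standard error for each class I gene in the 3 knockdown genotypes, in 1 panel for each stage, filled where the adjusted p was under 0.05. The filled points are TAP1 at Confluent in KAT2A_KD (-0.98) and KAT2AB_KD (-1.16) and PSMB9 at Differentiated in KAT2A_KD (1.44) and KAT2B_KD (1.71).

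The log2 fall of PSMB9 from Confluent to Differentiated was smaller in each knockdown than in NT. The difference itself passed only in the knockdowns of 1 gene. That difference was 2.31 ± 0.48 on the log2 scale in KAT2A_KD (adjusted p = 0.0273), 2.19 ± 0.48 in KAT2B_KD (0.0355) and 1.66 ± 0.48 in KAT2AB_KD (0.102). These comparisons share the NT libraries, and the counts of PSMB9 in NT Differentiated were 552 over both libraries. No test compared the change in KAT2AB_KD with those in the knockdowns of 1 gene. The KAT2A_KD call was lost without NT Confluent replicate 1 (0.111) or 2 (0.0558), NT Differentiated replicate 1 (0.0715) or 2 (0.131), KAT2A_KD Confluent replicate 2 (0.160) or KAT2A_KD Differentiated replicate 2 (0.0942). The KAT2B_KD call was lost without NT Confluent replicate 1 (0.106) or 2 (0.0966), NT Differentiated replicate 1 (0.0874) or 2 (0.138), KAT2B_KD Confluent replicate 1 (0.0529) or 2 (0.146), or KAT2B_KD Differentiated replicate 1 (0.129).

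TAP1 did not pass in the same test, at 1.25 ± 0.30 in KAT2A_KD (adjusted p = 0.0694), 0.72 ± 0.30 in KAT2B_KD (0.339) and 1.18 ± 0.30 in KAT2AB_KD (0.0608). With its counts divided by 8 it passed in KAT2A_KD (0.0425) and KAT2AB_KD (0.0383), and with the replicate number as a block it passed in KAT2AB_KD (0.0495). In KAT2A_KD, KAT2B_KD and KAT2AB_KD, B2M was at 1.09 (adjusted p = 0.193), 0.29 and 0.49, HLA-B at 0.96, 0.20 and 0.71, HLA-C at 0.91, 0.14 and 0.60, and HLA-E at 0.19, -0.41 and 0.09. HLA-F was at 0.40, 0.16 and 0.17, TAP2 at -0.05, -0.19 and 0.23, and TAPBP at 0.52, 0.27 and 0.48. Thus 1 member passed in KAT2A_KD, 1 in KAT2B_KD and 0 in KAT2AB_KD by edgeR, where 0.616%, 0.888% and 1.33% of all genes passed (0.489% as higher in KAT2A_KD and 0.552% in KAT2B_KD). In KAT2AB_KD 2 members had an unadjusted p under 0.05, beside 1910 of all genes, and DESeq2 called 2, beside 431 of all genes. PSMB9 of KAT2AB_KD passed with DESeq2 (adjusted p = 0.0248), without the filter (0.000375) and without KAT2AB_KD Differentiated replicate 2 (0.0281).

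In subconfluent cells no member passed between a knockdown and NT by edgeR, where 0.343% of all genes passed in KAT2A_KD, 0.0888% in KAT2B_KD and 2.70% in KAT2AB_KD. At an unadjusted p under 0.05 there were 0, 0 and 1 members (B2M in KAT2AB_KD, at -0.49 ± 0.23, adjusted p = 0.330), beside 896, 705 and 2315 of all genes. DESeq2 called 0 in each, beside 133, 66 and 724 of all genes. B2M was 266 and 239 CPM in NT, 184 and 202 in KAT2A_KD, 221 and 171 in KAT2B_KD, and 188 and 172 in KAT2AB_KD, so that all 6 knockdown libraries lay below NT. TAP1 likewise lay below NT in all 6, with differences of -0.42 ± 0.21, -0.26 ± 0.21 and -0.34 ± 0.21. The same NT libraries enter each of these comparisons, and the share of all genes so separated was not computed. PSMB9 overlapped NT in each knockdown, at 0.06, -0.17 and 0.18. HLA-B was at -0.26, -0.38 and -0.26, HLA-C at -0.22, -0.38 and -0.22, HLA-E at -0.17, -0.08 and -0.08, and HLA-F at -0.17, -0.07 and -0.13. TAP2 was at -0.22, -0.33 and -0.22, and TAPBP at -0.13, 0.23 and -0.06.

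Between knockdowns, 0 members passed in each of the 9 comparisons by edgeR. The log2 differences of the 9 members ran from -0.35 (TAPBP) to 0.35 (PSMB9) at Subconfluent, from -0.46 (TAP1) to 0.21 (TAP2) at Confluent and from -0.94 (PSMB9) to 0.66 (B2M) at Differentiated. At Subconfluent 0.533% of all genes passed in KAT2A_KD against KAT2B_KD, 0% in KAT2AB_KD against KAT2A_KD and 2.61% in KAT2AB_KD against KAT2B_KD. At Confluent these were 0.286%, 0.00635% and 1.61%, and at Differentiated 2.38%, 0.317% and 11% in the same order. At an unadjusted p under 0.05 there were 1 member at Confluent (TAP1 in KAT2AB_KD against KAT2B_KD, -0.46 ± 0.21, adjusted p = 0.447, beside 1648 of all genes) and 3 at Differentiated. These 3 were HLA-B (0.58 ± 0.27, adjusted p = 0.323) and B2M (0.66 ± 0.23, 0.161) in KAT2A_KD against KAT2B_KD, beside 2255 of all genes, and PSMB9 in KAT2AB_KD against KAT2B_KD (-0.94 ± 0.34, 0.0785), beside 4034 of all genes (2180 called by DESeq2). DESeq2 called PSMB9 in that last comparison (adjusted p = 0.0490), as did edgeR without the filter (0.00371), with the replicate number as a block (0.0448), without KAT2AB_KD replicate 1 (0.0206) or without KAT2B_KD replicate 2 (0.0276).

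Of 9 other proteasome genes of class I peptide supply, 5 fell and 0 rose from Confluent to Differentiated in NT, where 26.1% of all genes fell. Their median log2 change was -1.31, against -0.01 over all genes. The 4 that did not pass include the 3 standard catalytic subunits. PSMB8, the inducible beta5i subunit, was 270 to 352 CPM in NT Confluent and 64.1 to 72.8 CPM in NT Differentiated. It fell with log2 changes of -2.18, -1.04, -1.24 and -2.03 in NT, KAT2A_KD, KAT2B_KD and KAT2AB_KD (adjusted p = 1.03e-07, 0.000509, 0.000105 and 3.21e-07). PSMB10, the inducible beta2i subunit, fell in NT by 1.83 (adjusted p = 1.45e-05) and in KAT2AB_KD by 0.85 (0.0133, lost without KAT2AB_KD Differentiated replicate 1 at 0.108 or Confluent replicate 2 at 0.210), and was -0.50 and -0.55 in KAT2A_KD and KAT2B_KD. PSME2, a subunit of the interferon-inducible activator that caps the proteasome, fell by 1.57, 0.93, 0.83 and 1.25. PSMB5, PSMB6 and PSMB7, the standard counterparts of PSMB8, PSMB9 and PSMB10, passed in no genotype: PSMB6 was -0.43, -0.59, -0.65 and -0.59, and PSMB5 -0.17, -0.38, -0.30 and -0.36.

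**Figure D5:**
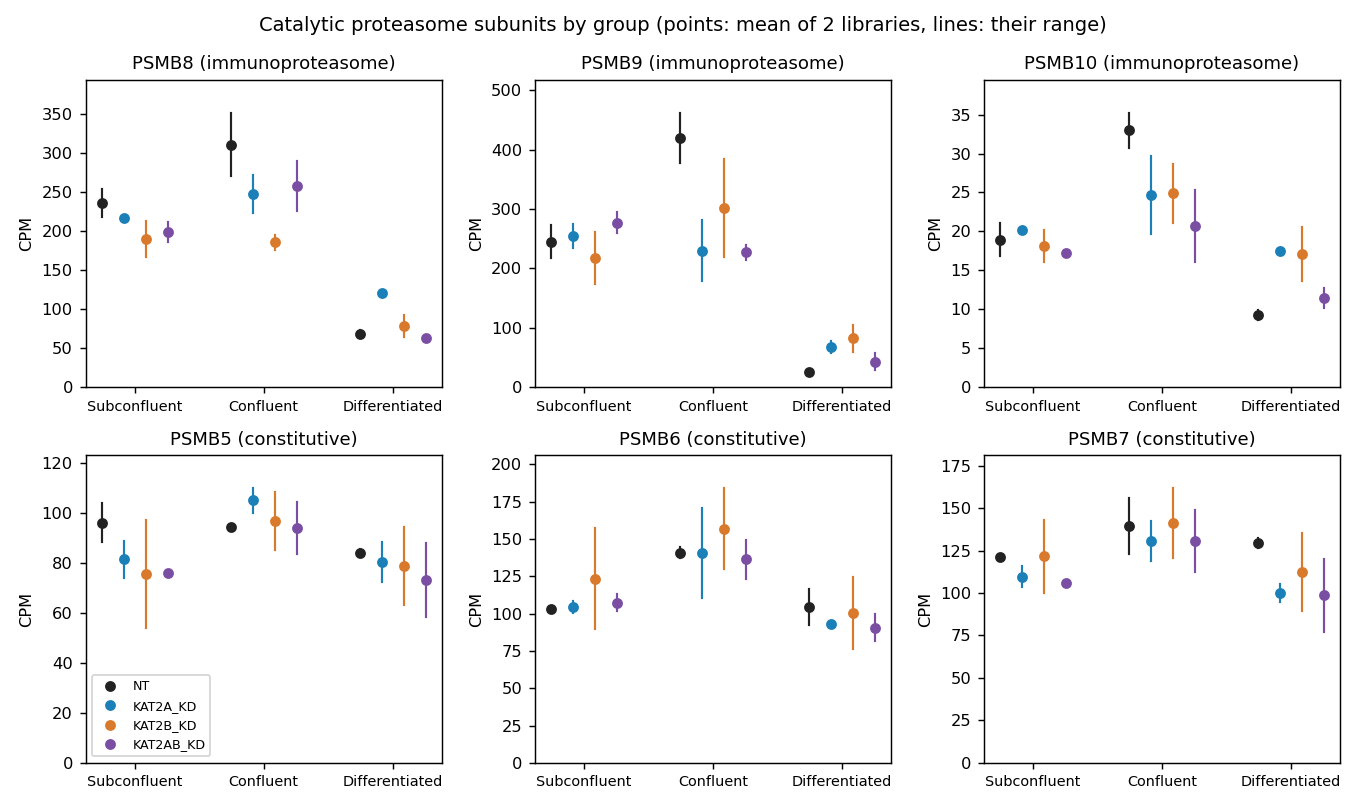
Level in CPM (linear axes from 0) of the 3 inducible catalytic proteasome subunits (upper row) and their 3 standard counterparts (lower row) by stage and genotype, with points for the mean of 2 libraries and lines for their range. PSMB9 drops to group means of 25.0 to 82.3 CPM at Differentiated, while PSMB5, PSMB6 and PSMB7 passed in no genotype between Confluent and Differentiated.

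Among 9 other loading and trimming factors, 1 rose and 3 fell in NT from Confluent to Differentiated (median log2 change -0.05), where 24.3% of all genes rose and 26.1% fell, so that the share of 4 in 9 is near the background. ERAP2, an aminopeptidase that trims peptides in the endoplasmic reticulum, fell by 2.47 (adjusted p = 2.07e-06), and THOP1, a cytosolic peptidase, by 1.85 (1.77e-05). CALR, the chaperone calreticulin, fell by 0.69 (0.0334), a call lost without NT Confluent replicate 1 (0.214), NT Differentiated replicate 1 (0.124) or replicate 2 (0.108). NPEPPS, a cytosolic aminopeptidase, rose by 0.85 (0.000133). In differentiated cells ERAP2 was 5.85 to 7.53 CPM in NT, 15.7 to 20.03 in KAT2A_KD and 16.8 to 20.03 in KAT2B_KD, higher than NT by 1.41 ± 0.31 (adjusted p = 0.0320) and 1.46 ± 0.31 (0.00856). Those calls on ERAP2 were lost without KAT2A_KD replicate 1 (0.101) or 2 (0.186) or NT replicate 1 (0.106) or 2 (0.304) for KAT2A_KD, and without KAT2B_KD replicate 2 (0.0632) or NT replicate 2 (0.128) for KAT2B_KD.

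Of 12 transcription regulators of class I genes, 8 fell and 0 rose in NT from Confluent to Differentiated (6 to 7 without 1 library), with a median log2 change of -0.77, where 26.1% of all genes fell and 24.3% rose. IRF1, the interferon-induced factor that binds the interferon-stimulated response element, was 20.5 to 25.4 CPM in NT Confluent and 2.17 to 4.91 CPM in NT Differentiated. It fell with log2 changes of -2.69, -1.02, -1.42 and -2.03 in NT, KAT2A_KD, KAT2B_KD and KAT2AB_KD. The IRF1 call in KAT2A_KD (adjusted p = 0.0190) was lost without KAT2A_KD Confluent replicate 1 (0.0521) or 2 (0.0756) or Differentiated replicate 1 (0.171). NLRC5, the class I transactivator, was 5.98 to 7.38 CPM in NT Confluent and 0.0943 to 0.175 CPM in NT Differentiated, where both libraries together had 3 counts. It was 1.06 to 1.44 CPM in Differentiated KAT2A_KD, 0.468 to 1.64 in KAT2B_KD and 0.247 to 0.837 in KAT2AB_KD. RFX5, a subunit of the complex that binds class I promoters with NLRC5, fell in NT by 2.17 (adjusted p = 2.07e-06). The part of these genes in the class I results was not tested.

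Of the 30 type I genes, 25 fell and 1 rose in NT from Confluent to Differentiated (18 to 24 fell without 1 library), with a median log2 change of -2.41, where 26.1% of all genes fell. In KAT2A_KD 22 rose and 0 fell, with a median of 1.86 (17 to 19 without 1 library), where 21.4% of all genes rose. In KAT2B_KD 7 rose and 4 fell (3 and 1 without KAT2B_KD Confluent replicate 1, 6 and 2 without Differentiated replicate 1, 6 and 1 without Confluent replicate 2, 8 and 2 without Differentiated replicate 2), where 19.3% of all genes rose and 20.3% fell. In KAT2AB_KD 10 rose and 3 fell, where 22.6% of all genes rose and 23.6% fell. That count was 5 and 10 without KAT2AB_KD Differentiated replicate 2, 14 and 1 without replicate 1, and 7 and 2 without Confluent replicate 2. In Differentiated KAT2A_KD 14 were higher than in NT and 0 lower, where 0.92% of all genes were higher, with 2 without KAT2A_KD replicate 1, 4 without NT replicate 1, 9 without KAT2A_KD replicate 2 and 2 without NT replicate 2. The 2 Differentiated KAT2AB_KD libraries differed in their mean level of these genes, at 2.76 and 4.13 log2 CPM. Of the interferon genes, IFNB1 had 4 counts over all 24 libraries, IFNG 1, IFNL1 7, IFNK, an interferon of keratinocytes, 57, and IFNE 137. IFNK had 29 of its counts in Differentiated KAT2A_KD (0.898 to 1.56 CPM, against 0.263 to 0.283 CPM in Differentiated NT), and it did not pass the filter on low counts.

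Of 11 class I-like genes, 4 passed as higher and 4 as lower in NT from Confluent to Differentiated (3 and 1 without NT Differentiated replicate 2), where 24.3% of all genes were higher and 26.1% lower. HLA-G, whose level followed that of HLA-B, is among these 11. ULBP2, a stress ligand of the NKG2D receptor, rose by 2.10, 1.82, 1.91 and 1.67 on the log2 scale in NT, KAT2A_KD, KAT2B_KD and KAT2AB_KD. MR1, which presents vitamin B metabolites, rose by 1.81, 1.59, 2.30 and 1.38. HFE, a class I-like gene of iron control, fell in NT by 2.02 (adjusted p = 0.000179).

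The members other than TAPBP and TAP1 fell into those highest at Differentiated and those highest before it. The Differentiated groups ranked 4, 5, 6 and 12 of the 12 for TAPBP, and 5, 10, 11 and 12 for TAP1. For HLA-B, HLA-C, HLA-E, HLA-F and B2M the 4 Differentiated groups had the 4 highest of the 12 group means, and NT Confluent came next. For HLA-B the highest group was KAT2A_KD Differentiated (4850 ± 283 CPM, SD, n = 2), which did not overlap NT Differentiated (4221 ± 31.1), while the next neighbours from NT Differentiated down to NT Confluent overlapped in turn. For HLA-E the highest was NT Differentiated (2654 ± 318 CPM, SD, n = 2). For TAP1 NT Confluent (1266 ± 31.9 CPM) stood first without overlap, and each of the other 11 groups overlapped its neighbour in the order. For PSMB9 NT Confluent (420 ± 59.5 CPM) stood first and overlapped the next, KAT2B_KD Confluent, and NT Differentiated (25.0 ± 1.27 CPM) stood last without overlap.

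Across the 24 libraries, with stage means removed, log2 CPM of HLA-B correlated with that of HLA-C at r = 0.995, with HLA-E at 0.788, B2M at 0.764 and TAP1 at 0.764, and with TAP2 at 0.140. TAP1 and PSMB9 correlated at 0.483. These are descriptions of libraries that share their genotype and scaling, and paralogs may share reads. Over the 12 group means, the mean scaled profile of the 9 members correlated at 0.842 with HLA-C, 0.836 with HLA-B, 0.400 with TAP1, -0.270 with TAP2 and -0.383 with PSMB9. Each member is itself part of that mean, which raises its r. Other genes near to that mean profile, with r over 12 groups, were IFI44L (0.915), SAMD9L (0.892), PTCHD3 (0.889), IFI6 (0.878), SCO2 (0.874), IFIH1 (0.872), KIAA2013 (0.870), MX2 (0.868) and DCST1 (0.864). IFI44L, SAMD9L, IFI6, IFIH1 and MX2 are among the 30 interferon-stimulated genes.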

How the data were processed

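Read counts per gene in 24 libraries of polyadenylated RNA were taken from the authors' deposited raw table. The submitters' processing notes name the build hg19 and the tools Bowtie2, FastQC, DESeq2 and featureCounts. Versions, annotation, strand setting and treatment of multi-mapping reads are not given in the sources used here. The authors' deposited normalized signal equals the counts divided by a size factor per library, to a relative deviation of 2.6e-07 for the members, and served as a check. The deposited sample table, whose other columns are labels, gave replicate numbers 2 and 3, called 1 and 2 here. They were not taken to pair libraries in the main fit. Replicate differences correlated between groups with a median r of 0.118, over 0.1 in 37 of 66 pairs. Whether the groups share a replicate effect was not tested, and a replicate block was run as an alternative. Of the count columns, 1 had no matching sample and stayed out. Within groups r of log CPM was 0.963 to 0.981 across genes, and 0 libraries were identical.

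The tests used edgeR 4.0.16 under R 4.3.3: filterByExpr by group (15757 genes), TMM scaling and 1 quasi-likelihood fit of 12 groups (12 residual degrees of freedom, common biological coefficient of variation 0.218), with p-values adjusted by Benjamini and Hochberg over all genes within each of 36 comparisons. Alternatives were RLE scaling, no filter, DESeq2 1.42.0, a replicate block and leaving out each library, and 2 added after seeing the data, with counts divided by 8. The rule was to name all 9 members in each comparison, at most 4 genes of lowest p from each related list, and single genes a result turns on. Members that passed no test between knockdowns, or from Subconfluent to Confluent in a knockdown, are given as a range. Some listed genes are not reported here. The members and lists were chosen with earlier results of these data known. The SE of a log2 fold change was derived from its test. It is the size of the change divided by the square root of the F statistic. Precision is limited by 2 libraries a group.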

Additional observations from a re-analysis of the deposited data

Results flagged for a closer look

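The change of PSMB9 from Confluent to Differentiated differed between KAT2A_KD and NT by 2.31 on the log2 scale, and between KAT2B_KD and NT by 2.19, in edgeR's test of the difference itself (adjusted p = 0.0273 and 0.0355). In each of the 3 genotypes both Differentiated libraries lay below both Confluent libraries. Both calls were lost when some single libraries were left out, as given above.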

How the results depend on the processing

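Of 52 member calls over the 36 comparisons, 52 were kept with RLE scaling, 52 without the filter, 52 with DESeq2 and 52 with the replicate block, and none changed direction under any alternative run. With the counts of TAP1 and PSMB9 divided by 8, or those of the 8 chromosome 6 members, 51 were kept. Without 1 library in turn, where the lone library of a group is assumed to vary like the other groups, 32 were kept in every fit and 20 were lost in some. The number of members passed went from 0 to 1 in NT, Confluent against Subconfluent, without the filter, with DESeq2 and with either division by 8. In confluent cells it went from 1 to 2 without the filter in KAT2A_KD and in KAT2AB_KD against NT, and from 0 to 1 with DESeq2 in KAT2B_KD. In differentiated cells it went from 1 to 0 in KAT2A_KD with either division by 8, and from 1 to 2 in KAT2B_KD with DESeq2. For the difference between stage changes, Confluent to Differentiated, it went from 1 to 2 in KAT2A_KD with DESeq2 and either division by 8. In KAT2AB_KD it went from 0 to 2 with DESeq2 and to 1 without the filter, with the replicate block and with either division by 8. In KAT2AB_KD against KAT2B_KD, Differentiated, it went from 0 to 1 without the filter, with DESeq2 and with the replicate block. The cause was not tested. The replicate block changed no other count of members by over 1.5 times.

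Leaving out 1 library gave 3 to 5 members in NT, Differentiated against Confluent, and 3 to 7 in KAT2B_KD, Differentiated against Subconfluent. Against NT it gave 0 in Confluent KAT2A_KD, 0 to 1 in Confluent KAT2AB_KD, 0 in Differentiated KAT2A_KD and 0 to 1 in Differentiated KAT2B_KD. For the difference between stage changes it gave 0 to 2 in KAT2A_KD, 0 to 1 in KAT2B_KD and 0 to 2 in KAT2AB_KD, and in KAT2AB_KD against KAT2B_KD, Differentiated, 0 to 1. Over all genes DESeq2 called more than 1.5 times as many as edgeR in 24 of 36 comparisons. Depth limits PSMB9 most, at 256 to 5888 counts, or 32 to 736 reads if each was counted 8 times.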
